A study of Mus musculus with 14 samples.

Results

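The genes described here are 10 listed genes of the NRF2 antioxidant response: Cbr3, Nqo1, Hmox1, Gclc, Gclm, Txnrd1, Srxn1, Gsr, Prdx1 and Nfe2l2. They are 10 of the 35275 genes in the deposited table, and all 10 passed the filter on low values that left 13079 genes. They were chosen by name, and with the knowledge that Cbr3 is much higher in the knockout animals of this series. The differences between knockouts and controls are therefore given for these genes as a description, with no test. The differences between housing temperatures, and the other genes of the pathway, were tested.

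RNA was sequenced from brown adipose tissue, the fat that makes heat, of C57BL/6 mice that were 8 weeks old. All animals carried floxed Lrpprc (LrpprcFF), and the knockouts (LrpprcBKO, genotype LrpprcFF Ucp1-Cre) carried in addition a Cre recombinase driven by the Ucp1 promoter. Controls had no Cre. The groups were 4 controls and 4 knockouts kept at 22 °C (room temperature) and 3 controls and 3 knockouts kept at 30 °C (thermoneutrality), 1 library for each animal. Cre acts in cells that express Ucp1, which in this tissue are the brown adipocytes, so vessels, macrophages and other cells of a knockout keep Lrpprc. The labels call the cells brown adipocytes, but whole tissue was homogenized and no isolation step is given.

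NRF2, the product of Nfe2l2, is a transcription factor that KEAP1 holds back and marks for degradation in unstressed cells. Electrophiles and oxidants modify KEAP1, NRF2 accumulates, pairs with a small MAF protein and binds antioxidant response elements in front of its target genes, many of which BACH1 otherwise represses. The targets make and recycle glutathione, reduce thioredoxin and peroxiredoxins, break down haem, and reduce carbonyls and quinones with NADPH. LRPPRC is an RNA-binding protein of mitochondria that stabilizes the transcripts of mitochondrial DNA, and brown fat burns fuel in those mitochondria to make heat.

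RefSeq promoter windows (build GRCm38.p6, 250 bases before to 50 after the start of transcription) were matched for 7 of the 10 genes: Cbr3, Nqo1, Gclm, Txnrd1, Srxn1, Prdx1 and Nfe2l2. Both strands were searched for the antioxidant response element core TGACNNNGC, where N is any base. They were also searched for the C/EBP-ATF element core TGATGNAAN and, added after the windows had been read, for the AP-1 element TGACTCA, which can overlap the antioxidant core. Sequences are shown for the gene with the largest knockout difference (Cbr3), for a gene near 2-fold higher in knockouts (Srxn1), for the one gene that passed the temperature test in controls (Gclm) and for a gene with little difference in most knockouts (Prdx1). They are written 5′ to 3′ on the strand of the gene, with matches in capitals.
Cbr3, chr16:93682969-93683268, plus strand: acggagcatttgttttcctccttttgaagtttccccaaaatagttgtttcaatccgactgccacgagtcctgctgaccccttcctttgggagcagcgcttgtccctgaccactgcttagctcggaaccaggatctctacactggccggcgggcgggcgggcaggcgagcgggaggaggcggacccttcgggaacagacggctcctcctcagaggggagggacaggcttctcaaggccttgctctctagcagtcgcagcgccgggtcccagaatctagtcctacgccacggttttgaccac
Srxn1, chr2:152105274-152105573, plus strand: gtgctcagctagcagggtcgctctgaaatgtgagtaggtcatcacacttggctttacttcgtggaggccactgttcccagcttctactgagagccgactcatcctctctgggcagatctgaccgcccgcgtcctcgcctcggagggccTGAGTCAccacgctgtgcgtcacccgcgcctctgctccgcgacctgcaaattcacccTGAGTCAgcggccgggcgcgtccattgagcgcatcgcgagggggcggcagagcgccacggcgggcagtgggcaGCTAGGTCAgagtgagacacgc
Gclm, chr3:122245307-122245606, plus strand: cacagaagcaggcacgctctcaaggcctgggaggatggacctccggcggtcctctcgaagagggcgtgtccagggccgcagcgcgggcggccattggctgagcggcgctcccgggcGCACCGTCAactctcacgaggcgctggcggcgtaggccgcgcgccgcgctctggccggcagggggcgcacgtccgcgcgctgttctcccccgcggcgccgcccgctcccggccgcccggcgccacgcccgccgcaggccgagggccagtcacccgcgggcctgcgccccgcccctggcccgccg
Prdx1, chr4:116685349-116685648, plus strand: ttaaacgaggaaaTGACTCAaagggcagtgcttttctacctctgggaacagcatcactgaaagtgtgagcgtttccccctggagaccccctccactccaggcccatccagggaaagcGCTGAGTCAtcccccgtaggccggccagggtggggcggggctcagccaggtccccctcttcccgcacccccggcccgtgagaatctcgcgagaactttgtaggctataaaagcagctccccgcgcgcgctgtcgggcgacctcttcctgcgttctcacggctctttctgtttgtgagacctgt
Counting from the start of transcription, the capitals in Srxn1 are AP-1 elements at -102 to -96 and -45 to -39 and an antioxidant core at 28 to 36, all on the opposite strand. Those in Gclm are an antioxidant core at -134 to -126. In Prdx1 the first run is an AP-1 element at -237 to -231, and the second (-133 to -125) is an antioxidant core that overlaps an AP-1 element. The window of Cbr3 held none of the 3 motifs, and neither did that of Nqo1. A core was also present in Nfe2l2 (TGACTCCGC, -240 to -232) and in 1 of the 3 windows of Txnrd1 (GCTTTGTCA, -92 to -84), so 5 of the 7 genes had one. Of all 32851 promoter windows, 12.4% held the antioxidant core, 3.95% the C/EBP-ATF core, which none of the 7 genes had, and 5.20% the AP-1 element. A match says only that these letters lie in the window.

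Levels below are scaled FPKM (fragments counted relative to transcript length and library depth, divided by a factor for each library taken from nuclear genes). A difference is a log2 fold change of scaled FPKM + 1. The libraries held 15.9 to 21.3 M fragments, recovered from the steps between low values. The targeted gene Lrpprc was 25.3 to 57.3 in controls and 8.84 to 11.2 in knockouts at 22 °C, and 30.3 to 32.7 against 4.97 to 8.56 at 30 °C, so every library matched its label. All 11 brown adipocyte markers were detected, with a summed level of 17801 to 23528 in controls and 14227 to 18541 in knockouts at 22 °C, and 13025 to 16132 in controls and 7245 to 9232 in knockouts at 30 °C. Such sums weigh the most abundant markers most. Counted by gene, 6 of the 11 had knockout differences above 0 at 22 °C (median 0.25) and 2 at 30 °C (median -0.35). The sum of 12 macrophage markers was 59.0 to 86.6 in controls and 99.1 to 221 in knockouts at 22 °C, and 120 to 435 and 690 to 2185 at 30 °C. Knockout replicate 1 at 30 °C stood apart with 2185, against 690 and 1049 in the other 2 knockouts. In bulk tissue, fewer cells of a type and less RNA per cell cannot be told apart. Xist was 9.70 to 15.3 in the 6 animals at 30 °C and at most 0.0139 in the 8 at 22 °C, and Ddx3y was at most 0.0242 at 30 °C and 16.3 to 23.9 at 22 °C. Housing temperature and sex-linked expression therefore cannot be told apart. Controls at 22 °C with replicate numbers 3 and 4 have identifiers that begin with R, and all other animals have identifiers that begin with E. The sum of 9 skeletal muscle markers was 5995 and 3713 in those 2 controls and 578 and 452 in the other 2. P-values measure the spread between these animals.

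Nfe2l2 (ENSMUSG00000015839), the gene of the factor itself, had 35.4, 25.2, 30.0 and 29.6 scaled FPKM in the 4 controls and 36.5, 42.0, 28.9 and 43.0 in the 4 knockouts at 22 °C. The ranges overlapped, through the third knockout. At 30 °C its level was 21.8, 27.2 and 24.1 in controls and 36.1, 35.2 and 36.8 in knockouts. There every knockout lay above every control. The log2 difference between knockouts and controls was 0.31 (SE 0.13) at 22 °C and 0.55 (SE 0.15) at 30 °C. Message is not a measure of NRF2 activity, since KEAP1 controls the protein.

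Cbr3 (ENSMUSG00000022947) encodes carbonyl reductase 3, an NADPH-dependent reductase. It had 2.18, 2.48, 6.42 and 3.74 scaled FPKM in controls and 38.9, 41.7, 20.3 and 20.4 in knockouts at 22 °C. At 30 °C it had 6.05, 6.83 and 6.84 in controls and 33.1, 56.8 and 78.1 in knockouts. Every knockout was above every control of either temperature, and no other gene of the 10 showed a difference of this size. Group means were 3.70 ± 1.93 and 30.3 ± 11.5 at 22 °C (SD, n = 4), or 8.19-fold, and 6.57 ± 0.453 and 56.0 ± 22.5 at 30 °C (SD, n = 3), or 8.52-fold. The log2 differences were 2.74 (SE 0.32) and 2.83 (SE 0.37). Without the 2 controls whose identifiers begin with R the difference at 22 °C was 3.16, and without knockout replicate 1 at 30 °C, which had the lowest Cbr3 and the highest macrophage marker sum of its group, the difference at 30 °C was 3.16 as well.

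Reads of Cbr3 could in principle be confused with those of its neighbouring paralogue Cbr1 (ENSMUSG00000051483), carbonyl reductase 1. Their transcripts were 77.6% identical over 839 nucleotides in a blastn search added after the data were seen. Only the longest match of each gene was kept, and in these no other gene reached 90% identity with Cbr3 over 200 nucleotides. The most identical was Gm45384, absent from the deposited table, at 86.3% over 277 nucleotides. Cbr1 was far more abundant, at 89.1 ± 7.91 scaled FPKM in controls and 130.3 ± 10.1 in knockouts at 22 °C (SD, n = 4), and 101.8 ± 2.45 and 120.7 ± 27.8 at 30 °C (SD, n = 3). Cbr1 rose in knockouts at 22 °C (0.54, SE 0.13, limma adjusted p = 0.0490) and did not pass at 30 °C (0.22, SE 0.15, limma adjusted p = 0.380). Its call at 22 °C ended in 13 of 16 alternatives, with limma adjusted p up to 0.166.

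Nqo1 (ENSMUSG00000003849), NAD(P)H quinone dehydrogenase 1 and the usual reporter gene of NRF2 activity, was the least abundant of the 10. At 22 °C it had 0.420, 0.597, 2.63 and 2.46 scaled FPKM in controls and 2.58, 3.19, 1.92 and 2.90 in knockouts. At 30 °C it had 2.37, 1.94 and 1.67 in controls and 4.12, 1.67 and 2.84 in knockouts. The ranges overlapped at both temperatures. The annotation gives Nqo1 a single transcript of 1553 nucleotides, so its reads could be recovered: 11 and 15 in the first 2 controls at 22 °C, with 95% exact Poisson intervals of 5.49 to 19.7 and 8.40 to 24.7. The 2 controls with R identifiers had 74 and 62 reads, with intervals of 58.1 to 92.9 and 47.5 to 79.5. The controls at 22 °C thus fell apart by more than counting error, along with their identifiers and their muscle marker sums, and the part of either in the Nqo1 level was not tested. The knockouts at 22 °C had 50 to 106 reads, the controls at 30 °C 45 to 66 and the knockouts at 30 °C 60 to 152. The log2 difference between knockouts and controls was 0.64 (SE 0.30) at 22 °C, 1.26 without the controls with R identifiers, and 0.33 (SE 0.34) at 30 °C. With a pseudocount of 0.1 the difference at 22 °C was 1.10, since a pseudocount of 1 shrinks differences at such levels.

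Hmox1 (ENSMUSG00000005413) encodes haem oxygenase 1, which opens the haem ring and is also abundant in macrophages that clear red cells. Controls at 22 °C had 6.20, 5.93, 4.02 and 5.83 scaled FPKM and knockouts 30.3, 25.4, 10.2 and 16.8. At 30 °C the controls had 8.81, 8.88 and 16.3, and the knockouts 73.8, 25.3 and 28.3. No knockout fell within the range of its controls, and group means differed 3.76-fold at 22 °C and 3.74-fold at 30 °C. The log2 differences were 1.65 (SE 0.36) and 1.70 (SE 0.41). At 30 °C the animal with the highest Hmox1 in each genotype was also the one with the highest macrophage marker sum, 435 among controls and 2185 among knockouts. Without that knockout the difference at 30 °C was 1.22. At 22 °C the sums were 59.0 to 86.6 in controls and 99.1 to 221 in knockouts, so every knockout lay above every control there too. The knockout with the highest Hmox1 at 22 °C had a sum of 105, and the one with the largest sum, 221, had 25.4 Hmox1. Among the knockouts at 30 °C the animal with the largest sum had the lowest Cbr3. The part of macrophages in the Hmox1 level was not tested.

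**Figure D1:**
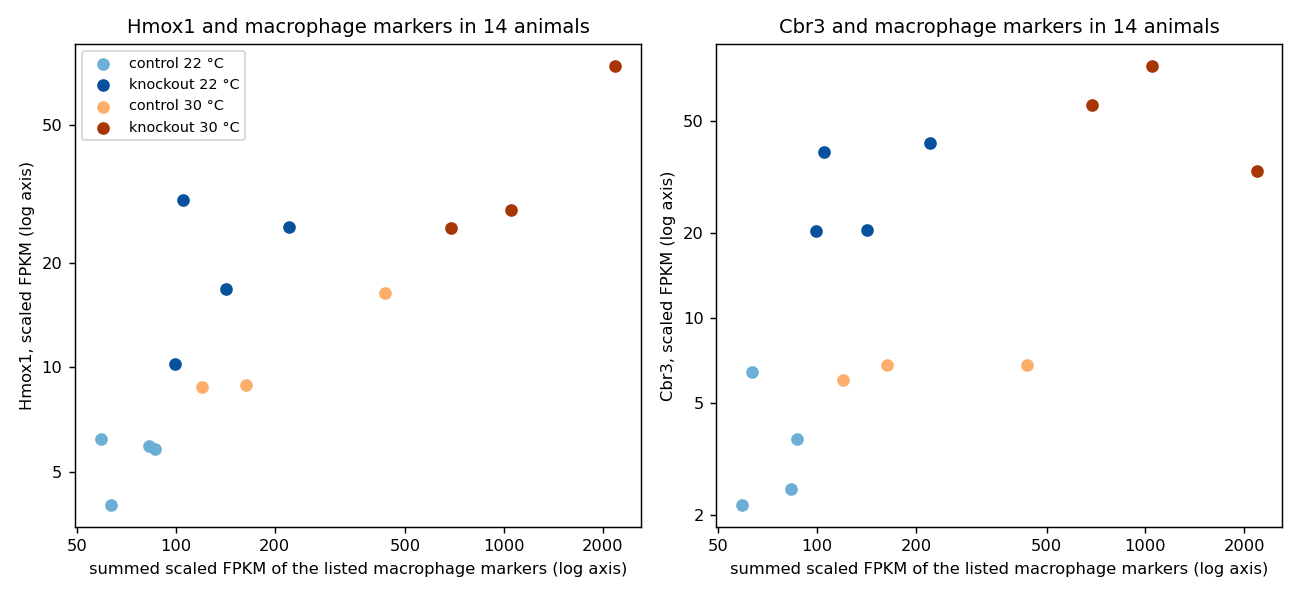
Each point is 1 of 14 animals; the horizontal log axis is the summed scaled FPKM of 12 macrophage markers, and the vertical log axis is the scaled FPKM of Hmox1 (left) or Cbr3 (right), coloured by group. The knockout at 30 °C with the largest marker sum (2185) had the highest Hmox1 (73.8) and the lowest Cbr3 of its group (33.1), while knockouts at 22 °C, with sums of 99.1 to 221, had 20.3 to 41.7 Cbr3.

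Glutathione is made in the cell by glutamate-cysteine ligase, whose catalytic subunit is Gclc (ENSMUSG00000032350) and whose modifier subunit is Gclm (ENSMUSG00000028124). Gclc had 8.89, 7.28, 8.20 and 7.21 scaled FPKM in controls and 8.66, 9.91, 8.76 and 9.32 in knockouts at 22 °C. At 30 °C it had 7.31, 6.60 and 6.39 in controls and 10.4, 9.28 and 9.62 in knockouts. The genotypes overlapped at 22 °C (log2 difference 0.20, SE 0.09) and were apart at 30 °C (0.47, SE 0.10).

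Gclm had 10.6, 8.11, 7.21 and 7.86 scaled FPKM in controls and 9.13, 10.3, 9.10 and 11.9 in knockouts at 22 °C. At 30 °C the controls had 4.25, 4.73 and 4.47 and the knockouts 11.8, 8.17 and 9.04. The controls at 30 °C were the lowest of the 14 animals, by a factor of 1.88 in the mean against controls at 22 °C. The knockout difference was 0.24 (SE 0.13) at 22 °C and 0.95 (SE 0.15) at 30 °C, and 0.81 at 30 °C without knockout replicate 1. A stretch of the annotated Gclm transcripts matched 27 other genes at 90% identity or more over at least 200 nucleotides, among them Ppia, which reached 170.5 FPKM, so its level may hold reads of those genes.

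Gsr (ENSMUSG00000031584), glutathione reductase, returns oxidized glutathione to its reduced form with NADPH. It had 10.4, 11.3, 12.1 and 9.49 scaled FPKM in controls and 9.89, 11.7, 12.1 and 12.0 in knockouts at 22 °C. At 30 °C it had 9.36, 8.53 and 9.30 in controls and 19.0, 13.4 and 14.7 in knockouts. The groups lay on top of each other at 22 °C (log2 difference 0.07, SE 0.11), and at 30 °C every knockout lay above every control (0.72, SE 0.13). Without knockout replicate 1, which had the highest Gsr, the difference at 30 °C was 0.58.

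Of the thioredoxin branch, Txnrd1 (ENSMUSG00000020250) encodes the cytosolic thioredoxin reductase. Its level was 37.0, 30.4, 29.8 and 19.5 in controls and 47.2, 41.8, 36.1 and 35.4 in knockouts at 22 °C. At 30 °C it was 27.3, 30.6 and 28.4 in controls and 44.0, 39.2 and 43.1 in knockouts. The first control was above 2 of the 4 knockouts at 22 °C, and the groups were apart at 30 °C. The log2 differences were 0.47 (SE 0.16) and 0.53 (SE 0.18), and the first was 0.25 without the controls with R identifiers.

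Srxn1 (ENSMUSG00000032802) encodes sulfiredoxin, which repairs peroxiredoxins that peroxide has overoxidized. Controls at 22 °C had 23.2, 18.0, 25.5 and 15.8 scaled FPKM and knockouts 49.2, 39.9, 27.9 and 40.2. Controls at 30 °C had 13.1, 16.7 and 16.1 and knockouts 46.8, 31.7 and 39.1. Every knockout was above every control of either temperature, as for Cbr3 but with a smaller gap. Means differed 1.91-fold at 22 °C and 2.56-fold at 30 °C, with log2 differences of 0.90 (SE 0.19) and 1.29 (SE 0.22).

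Prdx1 (ENSMUSG00000028691), peroxiredoxin 1, is an abundant peroxidase that thioredoxin reduces and sulfiredoxin repairs. It was the most abundant of the 10 per length, at 148.8, 115.1, 129.6 and 118.4 scaled FPKM in controls and 114.1, 115.3, 99.7 and 133.4 in knockouts at 22 °C. At 30 °C it was 81.3, 89.7 and 96.1 in controls and 202.4, 75.9 and 89.1 in knockouts. The ranges overlapped at both temperatures, and the mean of the knockouts at 30 °C rested on replicate 1. The log2 difference was -0.15 (SE 0.23) at 22 °C, where FPKM as deposited gave 0.16, and 0.32 (SE 0.27) at 30 °C, where leaving out knockout replicate 1 gave -0.11.

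**Figure D2:**
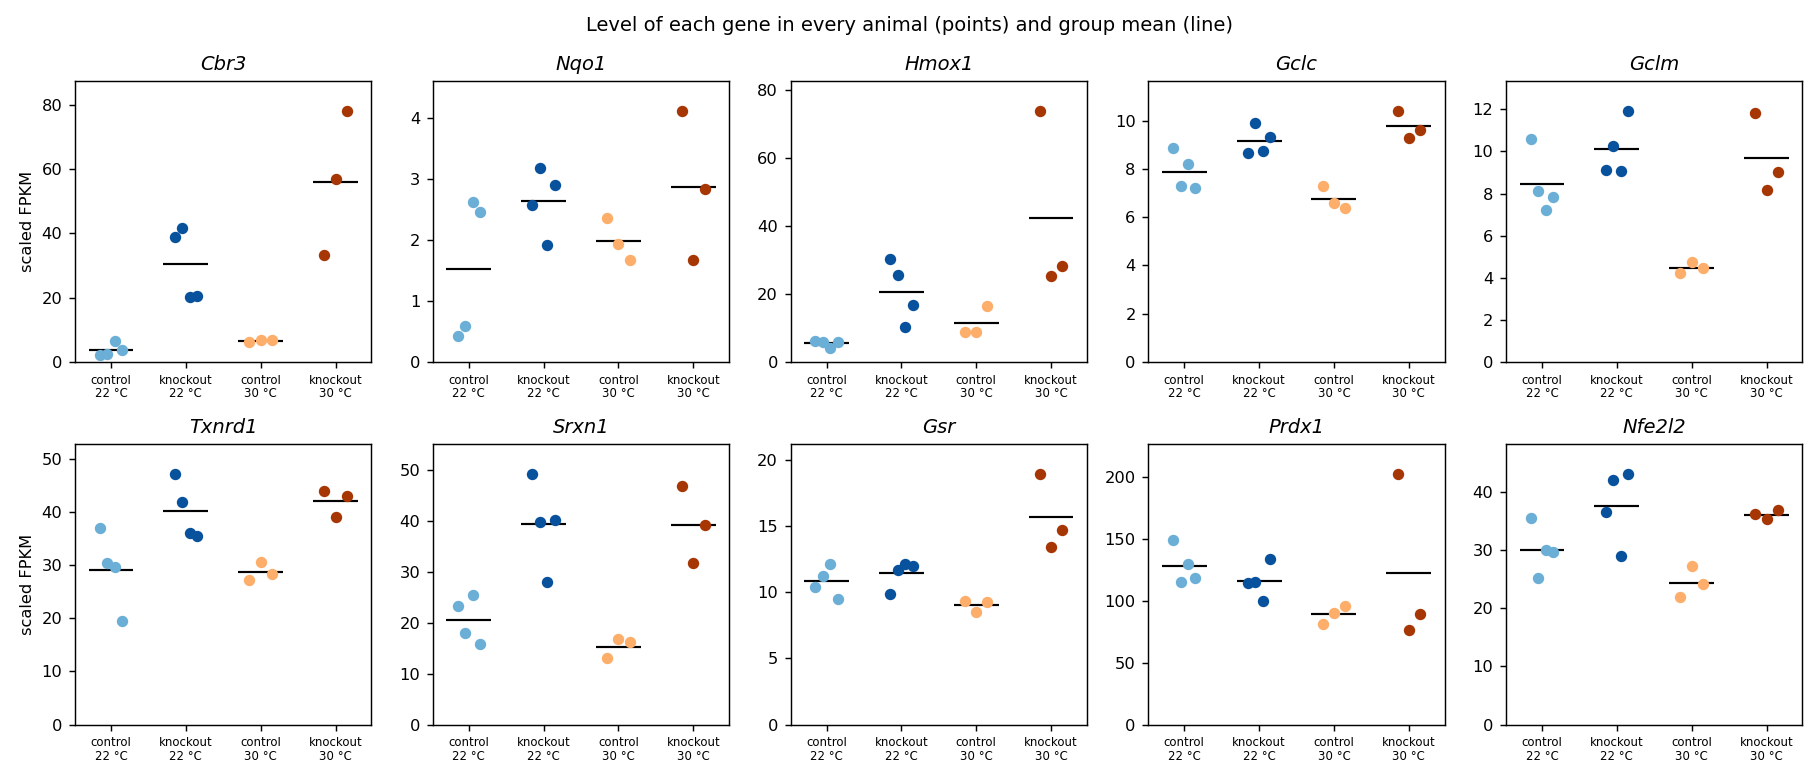
Level of each of the 10 genes in scaled FPKM (vertical axis, from 0) in every animal (points) of the 4 groups, with the group mean as a line. Cbr3, Hmox1 and Srxn1 were higher in every knockout than in every control of the same temperature, whereas the Prdx1 mean of the knockouts at 30 °C rested on 1 animal at 202.4.

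Over the 10 genes, log2 differences were above 0 in 9 at 22 °C and in 10 at 30 °C, with medians of 0.39 and 0.63. Over all 13079 genes tested the medians were 0.0024 and 0.065. Knockouts lay wholly above controls for 3 genes at 22 °C (4.85% of all genes) and 8 at 30 °C (22.2% of all genes). Without the controls with R identifiers there were 4 at 22 °C, the fourth being Nqo1, against 18.2% of all genes. These counts come from the contrasts used to choose the genes and support nothing further. With FPKM as deposited, which is not scaled to nuclear genes, the 10 differences ranged from 0.16 to 2.99 at 22 °C and from 0.54 to 3.11 at 30 °C.

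**Figure D3:**
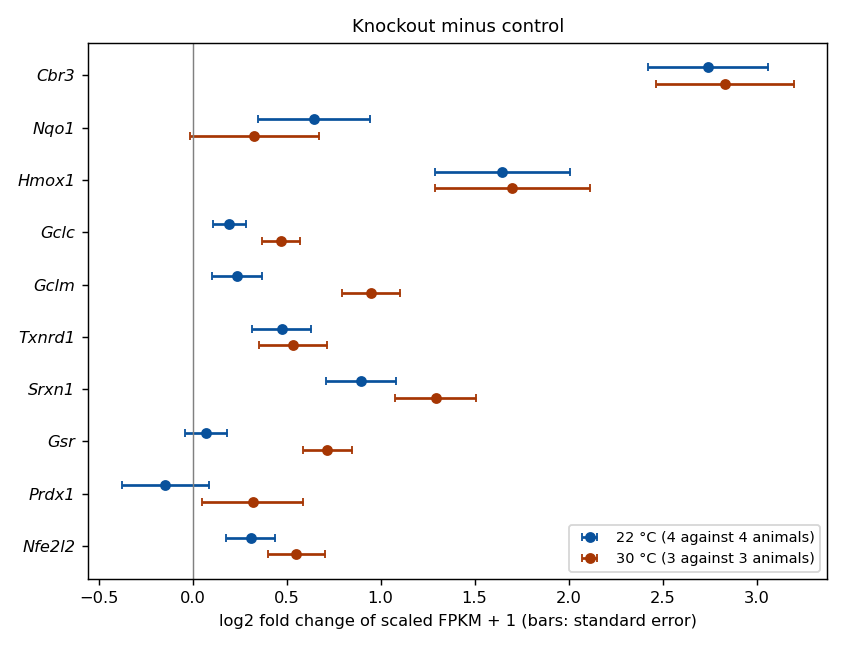
Log2 fold change of scaled FPKM + 1, knockout minus control, of each gene at 22 °C (4 against 4 animals) and 30 °C (3 against 3 animals), with bars of 1 standard error. Cbr3 (2.74 and 2.83), Hmox1 (1.65 and 1.70) and Srxn1 (0.90 and 1.29) stood furthest from 0, and Prdx1 was near 0 at 22 °C (-0.15).

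The order of the 4 group means differed among the genes. Cbr3, Nqo1 and Hmox1 ran from knockouts at 30 °C through knockouts at 22 °C and controls at 30 °C to controls at 22 °C. Neighbouring groups did not overlap between knockouts at 22 °C and controls at 30 °C for Cbr3 and between both control groups for Hmox1, and overlapped at each step for Nqo1. Gclc and Txnrd1 were highest in knockouts at 30 °C and lowest in controls at 30 °C, with an overlap at each step. Gsr had that order too, but the knockouts at 30 °C lay wholly above those at 22 °C and the controls at 30 °C wholly below those at 22 °C. Gclm, Srxn1 and Nfe2l2 were highest in knockouts at 22 °C, with close values in knockouts at 30 °C. Gclm of the controls at 30 °C lay apart from that of the controls at 22 °C, and Srxn1 of both knockout groups lay apart from that of the controls. Prdx1 was highest in controls at 22 °C, and its steps overlapped down to the knockouts at 22 °C, which did not overlap controls at 30 °C.

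The comparison of 22 °C with 30 °C within a genotype asked whether levels of the same genes differ with mild cold, with the limit that sex-linked expression differs along with temperature. In controls, Gclm alone of the 10 passed: it was higher at 22 °C by 0.77 on the log2 scale (SE 0.14, limma adjusted p = 0.00177), with every animal at 22 °C above every animal at 30 °C. Of all genes, 18.2% were called higher and 20.6% lower at 22 °C, so 1 of 10 is no more than the background. Gclm passed in all alternatives, with limma adjusted p of at most 0.00900. Cbr3 (-0.77, SE 0.34, limma adjusted p = 0.0910) and Hmox1 (-0.89, SE 0.39, limma adjusted p = 0.0837) did not pass, although Hmox1 of every control at 22 °C lay under that of every control at 30 °C. Hmox1 passed when both control groups were fitted alone (limma adjusted p = 0.0254), and Cbr3 without control replicate 3 at 22 °C (-1.01, limma adjusted p = 0.0284). Without the controls with R identifiers, Cbr3 (-1.18, limma adjusted p = 0.0199) and Nqo1 (-0.98, limma adjusted p = 0.00702, against -0.37, SE 0.32 and limma adjusted p = 0.382 with them) were lower at 22 °C. Prdx1 (0.51, SE 0.25, limma adjusted p = 0.119), Gsr (0.23, SE 0.12, limma adjusted p = 0.151), Srxn1 (0.39, SE 0.20, limma adjusted p = 0.140), Nfe2l2 (0.29, SE 0.14, limma adjusted p = 0.124), Gclc (0.19, SE 0.10, limma adjusted p = 0.123) and Txnrd1 (-0.01, SE 0.17, limma adjusted p = 0.955) did not pass. For Prdx1 and Gsr, however, every control at 22 °C lay above every control at 30 °C. Prdx1 passed in 1 alternative, in which its difference was again 0.51.

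In knockouts, Gsr passed: it was lower at 22 °C (-0.42, SE 0.12, limma adjusted p = 0.0123), with every animal at 22 °C below every animal at 30 °C. Of all genes, 29.4% were called lower and 21.8% higher there. Without knockout replicate 1 at 30 °C Gsr no longer passed (-0.28, limma adjusted p = 0.0783). Cbr3 was close to the threshold (-0.86, SE 0.34, limma adjusted p = 0.0508) and passed without that animal (-1.19, limma adjusted p = 0.0187). Prdx1, which had its highest level in that animal, went from 0.05 (SE 0.25, limma adjusted p = 0.881) to 0.48 (limma adjusted p = 0.0188) without it. Hmox1 differed by -0.94 (SE 0.39, limma adjusted p = 0.0565) with it and by -0.46 (limma adjusted p = 0.309) without it. Both genes lay near the threshold and passed under other settings too, which moved limma adjusted p from 0.0187 to 0.222 for Cbr3 and from 0.0300 to 0.309 for Hmox1. FPKM as deposited called both lower at 22 °C (limma adjusted p = 0.0398 and 0.0375), as did leaving out knockout replicate 1 at 22 °C (limma adjusted p = 0.0390 and 0.0300). Cbr3 also passed without knockout replicate 2 at 22 °C (limma adjusted p = 0.0310), and Hmox1 without knockout replicate 2 at 30 °C (limma adjusted p = 0.0306) and with equal nuclear totals (limma adjusted p = 0.0475). The other 6 genes had differences of -0.08 to 0.06 with limma adjusted p of 0.480 or more. The macrophage marker sum of the knockouts differed between temperatures too (99.1 to 221 and 690 to 2185), and its part in these differences was not tested.

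**Figure D4:**
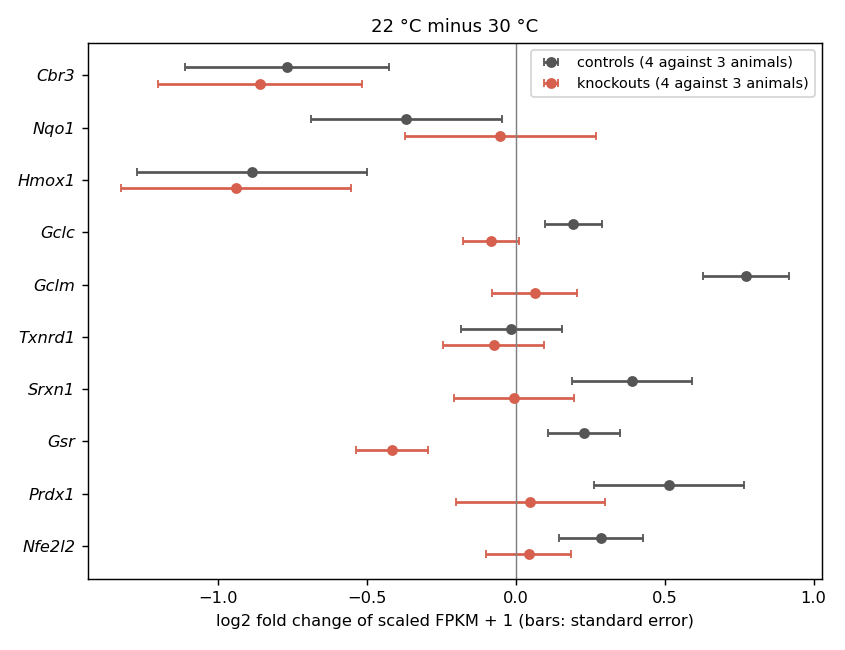
Log2 fold change of scaled FPKM + 1, 22 °C minus 30 °C, of each gene in controls and knockouts (4 against 3 animals each), with bars of 1 standard error. Gclm in controls (0.77) and Gsr in knockouts (-0.42) passed the test, and Cbr3 and Hmox1 were below 0 in both genotypes without passing (limma adjusted p of 0.0508 to 0.0910), although each passed under some alternatives.

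The difference between the knockout effects at 22 °C and 30 °C was tested in the same model. None of the 13079 genes passed in limma (0 at an adjusted p under 0.05, 1694 or 13.0% at an unadjusted p under 0.05). Among the 10 genes, Gclm (-0.71, SE 0.20, limma adjusted p = 0.205) and Gsr (-0.64, SE 0.17, limma adjusted p = 0.201) had the largest differences, the effect being smaller at 22 °C. For Cbr3 it was -0.09 (SE 0.49, limma adjusted p = 0.964) and for Hmox1 -0.05 (SE 0.55, limma adjusted p = 0.983). Effects apart at 30 °C and overlapping at 22 °C, as those of Gclc, Gclm, Gsr, Txnrd1 and Nfe2l2, were thus not shown to differ between temperatures. Here too, sex-linked expression differs along with temperature and cannot be told apart from it.

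Other genes of the pathway were followed through 105 genes listed by role, of which 96 passed the filter. At 22 °C, 3 rose and 4 fell in knockouts, and at 30 °C 10 rose and 15 fell. The balance of these calls turned with the scaling: FPKM as deposited gave 24 higher and 2 lower at 22 °C and 26 higher and 2 lower at 30 °C, and an equal total over nuclear genes gave 9 and 2 and 16 and 7. Over all 13079 genes, FPKM as deposited called 3167 higher and 81 lower at 22 °C and 4280 and 291 at 30 °C. Equal nuclear totals called 386 and 75 and 2225 and 409 of all genes. FPKM as deposited placed the median of all genes at 0.24 at 22 °C and 0.31 at 30 °C, and equal nuclear totals at 0.12 and 0.19, so under both the pathway medians (0.18 and 0.24, 0.03 and 0.11) lay below those of all genes, as they did with the scaling used here (-0.10 and -0.03). At 30 °C that order turned with quantile normalization (-0.04 for the pathway and -0.05 for all genes) and with no filter (0.03 and 0.01). Single animals moved the counts as well: at 22 °C they were 0 and 0 without the first control, and at 30 °C 6 and 6 without knockout replicate 1 and 4 and 7 without knockout replicate 3. A list of 33 other well-known NRF2 targets lies wholly within those 105 genes, so its calls are also counted above. Among its 28 tested genes, 2 rose and 0 fell at 22 °C (median -0.02), and 6 rose and 2 fell at 30 °C (median 0.17). FPKM as deposited called 8 and 14 of them higher and 0 lower, with medians of 0.26 and 0.47. Single animals moved these counts too: 0 rose at 22 °C without control replicate 1, 2 or 4 or knockout replicate 2, and at 30 °C 2 rose without knockout replicate 3, 3 without knockout replicate 1 or any 1 control, and 9 without knockout replicate 2. Of all genes, 0.91% and 8.82% were called higher and 1.06% and 5.28% lower with the scaling used here.

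Of 9 regulators tested, Sqstm1 rose at 22 °C and Maff, Mafk and Sqstm1 rose at 30 °C, against 0.91% and 8.82% of all genes. Sqstm1 encodes p62, an autophagy receptor that draws KEAP1 away from NRF2 and is itself an NRF2 target. It had 78.9 to 111 scaled FPKM in controls and 141 to 358 in knockouts at 22 °C, and 105 to 118 and 204 to 336 at 30 °C. The log2 difference was 1.23 at both temperatures (SE 0.24, limma adjusted p = 0.0218 at 22 °C and SE 0.28, limma adjusted p = 0.0115 at 30 °C). Leaving out animals ended the call in some fits, with limma adjusted p up to 0.0796 at 22 °C and 0.0536 at 30 °C. Maff and Mafk encode small MAF proteins, the partners of NRF2 and BACH1 on DNA. At 30 °C they rose by 1.96 (SE 0.34, limma adjusted p = 0.00338) and 1.32 (SE 0.20, limma adjusted p = 0.00174), and at 22 °C they did not pass (0.54 and 0.57). Keap1 itself differed by -0.09 (SE 0.10, limma adjusted p = 0.713) and 0.10 (SE 0.11, limma adjusted p = 0.594), and Bach1 by -0.01 (SE 0.14, limma adjusted p = 0.978) and 0.32 (SE 0.17, limma adjusted p = 0.234).

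Of 12 genes of glutathione synthesis and transport tested, 1 rose at 22 °C and 2 at 30 °C, against 0.91% and 8.82% of all genes. Slc3a2, the heavy chain that several amino acid transporters share, among them the cystine importer, rose from 15.4 to 25.3 scaled FPKM in controls to 42.0 to 117 in knockouts at 22 °C (1.49, SE 0.27, limma adjusted p = 0.0155), a call that ended without the first control (limma adjusted p = 0.0505). It rose by 1.0 at 30 °C (SE 0.31, limma adjusted p = 0.0478). Slc7a11, the cystine-specific light chain and a well-known NRF2 and ATF4 target, did not reach the filter and was at most 0.561 scaled FPKM in any animal.

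Of 19 glutathione transferases tested, 2 fell at 22 °C and 6 fell and 1 rose at 30 °C. The shares of all genes called lower were 1.06% and 5.28%, and 8.82% were called higher at 30 °C. The one that rose was Gsta3 (1.72, SE 0.30, limma adjusted p = 0.00361), at 0.577 to 1.92 in controls and 4.85 to 8.11 in knockouts. At 22 °C Gstz1 (-0.74, SE 0.15, limma adjusted p = 0.0251), the transferase of tyrosine breakdown, and Gstk1 (-0.47, SE 0.10, limma adjusted p = 0.0309), a mitochondrial and peroxisomal transferase, fell. Gstt2 (-0.74, SE 0.21, limma adjusted p = 0.0308) and Mgst1 (-0.62, SE 0.14, limma adjusted p = 0.0105) fell at 30 °C. With FPKM as deposited the list had 2 higher and 1 lower at 22 °C and 1 higher and 0 lower at 30 °C, with medians of -0.07 and -0.12, and without knockout replicate 1 it had 1 higher and 1 lower at 30 °C. The calls of Gstk1, Gstt2 and Mgst1 ended with FPKM as deposited (limma adjusted p = 0.197, 0.130 and 0.0604), and that of Gstz1 with quantile normalization (limma adjusted p = 0.0692).

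Of 14 peroxidases, dismutases and catalase tested, 2 fell at 22 °C, 6 fell at 30 °C and 0 rose, against 1.06% and 5.28% of all genes called lower. FPKM as deposited gave 1 lower at 22 °C and 1 higher and 2 lower at 30 °C, and quantile normalization gave 1 and 2 lower and 0 higher. Gpx8, a peroxidase of the endoplasmic reticulum, was the largest of them at both temperatures (-1.10, SE 0.20, limma adjusted p = 0.0160 and -1.39, SE 0.23, limma adjusted p = 0.00295), with 104 to 159.8 scaled FPKM in controls and 47.9 to 76.5 in knockouts at 22 °C. Its call at 22 °C ended when any of 4 animals was left out in turn (limma adjusted p up to 0.0634). Prdx2, a close relative of Prdx1 and abundant in red cells, fell by 0.37 at 22 °C (SE 0.08, limma adjusted p = 0.0414) and was at -0.07 with FPKM as deposited (limma adjusted p = 0.577). Gpx3, the secreted plasma glutathione peroxidase, fell by 0.90 at 30 °C (SE 0.19, limma adjusted p = 0.00969), but quantile normalization gave 0.37 (limma adjusted p = 0.547). Prdx5, a peroxiredoxin found in mitochondria, fell by 0.62 (SE 0.15, limma adjusted p = 0.0165), and FPKM as deposited ended that call (-0.32, limma adjusted p = 0.152).

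The remaining roles held few calls, to be read beside the shares of all genes at 22 °C (0.91% higher, 1.06% lower) and 30 °C (8.82% higher, 5.28% lower). Of 13 thioredoxins, glutaredoxins and sestrins, 0 passed at 22 °C, and at 30 °C 1 rose and 2 fell. Sesn2, a stress-induced sestrin, rose by 1.32 (SE 0.31, limma adjusted p = 0.0143), a call that ended without control replicate 1 or knockout replicate 3 (limma adjusted p = 0.0644 and 0.0681). The 2 that fell were Txn2 (-0.47, limma adjusted p = 0.0278) and Txnrd2 (-0.42, limma adjusted p = 0.0428), the thioredoxin and thioredoxin reductase of mitochondria. Of 8 haem and iron genes 0 passed at 22 °C and 1 rose at 30 °C, the ferritin light chain gene Ftl1 (1.05, SE 0.24, limma adjusted p = 0.0127), whose reads may be shared with its many pseudogenes. Of 14 reductases and detoxification genes, 1 rose at 22 °C, which was Cbr1, and at 30 °C the aldo-keto reductase Akr1b8 rose (0.84, limma adjusted p = 0.0367) and Cbr4, a mitochondrial carbonyl reductase, fell (-0.55, limma adjusted p = 0.0125). Of 7 genes of NADPH supply, 0 passed at 22 °C and Pgd rose at 30 °C (0.82, limma adjusted p = 0.0459). The genes named in these sentences other than Sesn2 and Cbr1 were chosen after their values were seen.

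**Figure D5:**
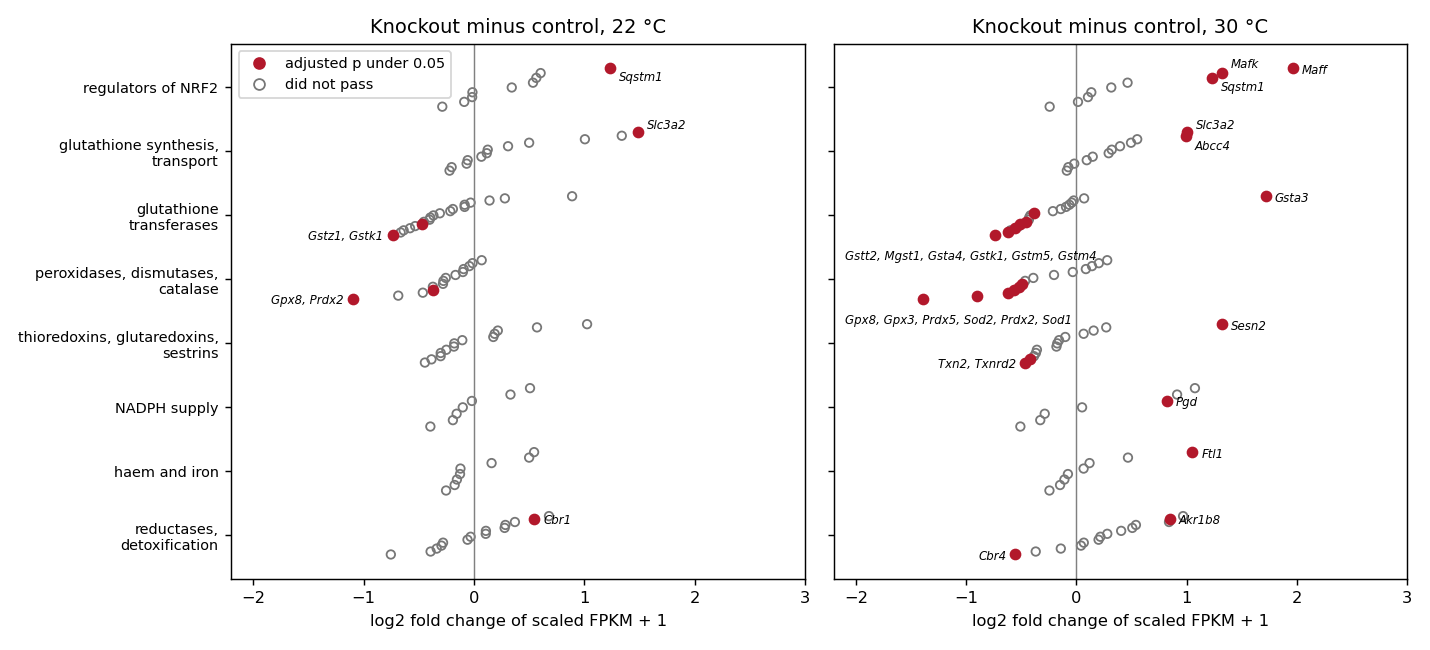
Log2 fold change of scaled FPKM + 1, knockout minus control, at 22 °C (left) and 30 °C (right) for the 96 tested genes of the pathway other than the 10, in rows by role; filled points passed limma's test (adjusted p under 0.05) and are named. Calls were 3 higher and 4 lower at 22 °C and 10 higher and 15 lower at 30 °C, with glutathione transferases and peroxidases mostly on the lower side, whereas FPKM as deposited gave 24 higher and 2 lower and 26 higher and 2 lower over the 96 genes. Shares of all 13079 genes were 0.91% higher and 1.06% lower at 22 °C and 8.82% and 5.28% at 30 °C. FPKM as deposited called 3167 and 4280 of all genes higher.

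NADPH, which Gsr, Txnrd1, Nqo1, Cbr3 and haem breakdown all consume, is supplied in part by enzymes that also serve fat synthesis. Of 7 genes listed under NADPH supply, 5 were higher at 22 °C and 0 lower in controls, and 6 were higher and 1 lower in knockouts. All 96 tested pathway genes together had 18 higher and 19 lower at 22 °C in controls, and 25 and 26 in knockouts. The shares of all genes called were 18.2% higher and 20.6% lower in controls, and 21.8% and 29.4% in knockouts. Sex-linked expression differs along with temperature in these comparisons as well. Me1 (malic enzyme) was higher at 22 °C by 2.30 in controls (SE 0.37, limma adjusted p = 0.000838) and 1.37 in knockouts (SE 0.37, limma adjusted p = 0.00737). Pgd, of the pentose phosphate pathway, was higher by 1.40 (SE 0.24, limma adjusted p = 0.00111) and 1.09 (SE 0.24, limma adjusted p = 0.00214). Tkt, transketolase, was higher by 1.11 (SE 0.24, limma adjusted p = 0.00421) and 1.46 (SE 0.24, limma adjusted p = 0.000448). Lower at 22 °C in controls were Gpx3 (-1.41, SE 0.18, limma adjusted p = 0.000305), Mafk (-1.17, SE 0.19, limma adjusted p = 0.000819) and Gstp2 (-1.30, SE 0.27, limma adjusted p = 0.00318), whose reads may be split with its close copy Gstp1. Lower at 22 °C in knockouts were Mafk (-1.92, SE 0.19, limma adjusted p = 2.56e-05), Maff (-1.72, SE 0.32, limma adjusted p = 0.000808) and Nnt (-1.86, SE 0.57, limma adjusted p = 0.0151). Nnt, the proton-driven transhydrogenase of mitochondria, no longer passed without knockout replicate 1 at 30 °C (-1.49, limma adjusted p = 0.0771), the animal with the highest Nnt (23.7) and, among knockouts, the highest muscle marker sum (8057).

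The genes whose levels were most like those of Cbr3 were sought among 8735 genes with a mean of at least 5 FPKM in some group, by Pearson's r of log2(scaled FPKM + 1) over the 14 animals. They were Aldh18a1 (0.97), an enzyme of proline synthesis, Gadd45a (0.97), a stress-induced growth arrest gene, Trib3 (0.96), a pseudokinase induced by ATF4, Extl1 (0.96), a glycosyltransferase, Arhgef2 (0.95), Pvr (0.95), a cell adhesion receptor, Cyb5r1 (0.95), a cytochrome b5 reductase, and Rcc2 (0.94), a protein of mitosis. These points share the contrast of genotypes by which Cbr3 was chosen. Within the 7 knockouts r was 0.75 (Cyb5r1) to 0.91 (Gadd45a), and within the 7 controls 0.55 (Gadd45a) to 0.96 (Rcc2), both across the 2 temperatures. Of the other 9 genes of the response, Hmox1 was nearest by this measure (rank 104, r = 0.82), then Srxn1 (rank 139, r = 0.81), Txnrd1 (rank 284, r = 0.74), Gclc (rank 398, r = 0.70), Nfe2l2 (rank 716, r = 0.63), Gsr (rank 977, r = 0.59), Gclm (rank 2265, r = 0.41) and Prdx1 (rank 5496, r = -0.14). Nqo1 (r = 0.62) was too low to be ranked. That order rests on animals of both genotypes, whose means differ. Within the 7 knockouts r with Cbr3 was highest for Txnrd1 (0.57), then Hmox1 (0.41), Gclc (0.25), Gsr (0.21), Srxn1 (0.14) and Nfe2l2 (0.13), and below 0 for Nqo1 (-0.04), Prdx1 (-0.46) and Gclm (-0.53). Within the 7 controls it was above 0 for Nqo1 (0.81) and Hmox1 (0.43) and below 0 for the other 7, from -0.20 (Txnrd1) to -0.86 (Gclm).

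Aldh18a1 and Trib3 belong to a list of 25 genes that the factor ATF4 induces when amino acids or mitochondria fail, none of them among the 10. Of the 24 tested, 12 rose and 0 fell at 22 °C (8 to 12 rose when an animal of that comparison was left out) and 13 rose and 1 fell at 30 °C (8 to 12 rose), with medians of 1.0 and 1.1. Over all genes, 0.91% were called higher and 1.06% lower at 22 °C, and 8.82% higher and 5.28% lower at 30 °C. The list shares 4 genes with the pathway list (Chac1, Sesn2, Slc3a2 and Slc7a11), so Slc3a2 and Sesn2 above are counted in both. Its summed level was 678 to 902 in controls and 1154 to 1768 in knockouts at 22 °C, and 762 to 1064 and 1451 to 1848 at 30 °C. Trib3 was 3.97 higher in knockouts at 22 °C and 3.46 at 30 °C, and Aldh18a1 1.62 and 1.95. Both were singled out for their likeness to Cbr3, so a knockout difference was to be found and no test is given for them. The 12 and 13 genes counted as risen include both of them.

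Markers of other cell types moved along with the knockout effect at 30 °C. Of 12 macrophage markers, 11 rose at 30 °C and 0 passed at 22 °C, and the 5 fibroblast markers all rose at 30 °C and 0 passed at 22 °C. The shares of all genes called were 8.82% higher and 5.28% lower at 30 °C, and 0.91% and 1.06% at 22 °C. At 30 °C 11 macrophage markers were called whichever animal was left out, but 2 fibroblast markers were called without control replicate 1 or 2 or knockout replicate 1, and 3 without knockout replicate 3. Among the defining macrophage markers, Adgre1 was 2.02 to 6.42 in controls and 10.4 to 26.9 in knockouts at 30 °C, and Cd68 was 7.25 to 23.2 and 46.8 to 156. The marker that did not rise at 30 °C was Cd163, whose difference was below 0 and did not pass. Cd163 was also the only macrophage marker called higher at 22 °C than at 30 °C, in controls and in knockouts. Of 11 brown adipocyte markers, 5 fell at 30 °C (3 without control replicate 2 or 3 or knockout replicate 1 or 3, and 1 with quantile normalization), and at 22 °C 1 rose and 1 fell. Of 9 skeletal muscle markers 0 passed at either temperature, but all 9 had differences above 0 at 30 °C (median 1.87) and below 0 at 22 °C (median -0.74). Their sums ran from 70.5 to 12672 in controls and from 1889 to 8057 in knockouts at 30 °C, so the genotypes overlapped. Of 5 endothelial markers 0 passed at either temperature. Gclc, Gclm, Gsr, Nfe2l2 and Txnrd1, whose genotypes were apart at 30 °C and not at 22 °C, differed in the comparison where these markers moved, and their part in those differences was not tested. Cbr3, Hmox1 and Srxn1 were apart at 22 °C too, where no macrophage or fibroblast marker passed. Still, 11 of 12 macrophage markers (median 0.59) and 4 of 5 fibroblast markers (median 0.26) had differences above 0 there. The median over all genes was 0.0024. The macrophage sums of the genotypes did not overlap at 22 °C, and the part of these cells in the 3 genes was not tested.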

How the data were processed

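Total RNA of whole brown adipose tissue from 14 mice was sequenced on an Illumina instrument, per the labels' protocols. The authors deposited FPKM per gene in 1 table of all animals. Build mm9 is named in the submitters' processing notes. Aligner, counting, strand and annotation are not given in the sources used here. GENCODE M21 supplied symbols for 34490 of the 35275 identifiers. No coordinates were taken from the table. Groups come from genotype and housing temperature in the labels, and replicate numbers follow the order of the samples.

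Genes with FPKM of at least 1 in at least 3 samples were kept (13079). Each library was divided by its median ratio over 10049 nuclear genes (0.823 to 0.947 in controls, 1.05 to 1.20 in knockouts). Values were log2(scaled FPKM + 1), so differences of low genes are understated. Depth was recovered from single-transcript genes, of whose low values 90.3% to 92.1% were whole reads within 2%, and read numbers and intervals cover counting error only. One limma 3.58.1 model (R 4.3.3, eBayes with trend) with a mean per group was fitted to all genes, adjusted by Benjamini-Hochberg, and called at an adjusted p under 0.05. It was tested on simulated data.

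The 10 genes, the gene lists and the tests were chosen with earlier results of these data known. Named were the 10 genes, Lrpprc, Cbr1, the 5 largest called pathway changes in each direction per knockout comparison and the 3 largest per temperature comparison, the 8 genes most like Cbr3, listed markers and ATF4 targets. Keap1, Bach1 and Slc7a11 were added after their values were seen. Alternatives changed the pseudocount, filter, scaling, trend, groups fitted and animals included. Protein sequences were not used here. Transcripts were compared with blastn 2.17.0, and figures were drawn with matplotlib 3.10.9.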

Additional observations from a re-analysis of the deposited data

Results flagged for a closer look

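Among 60 groups of 4 animals examined for 30 named genes, 1 had an animal far from the others by Dixon's criterion, which chance meets in about 1 in 20 groups. It was Gstp2, a glutathione transferase, in knockouts at 22 °C, where knockout replicate 3 had 5.02 scaled FPKM and the nearest of the other 3 had 2.66.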

How the results depend on the processing

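Cbr3 was higher in knockouts in every alternative that was run, by 2.57 to 3.16 on the log2 scale at 22 °C and 2.55 to 3.16 at 30 °C, as were Hmox1 (1.44 to 1.93 and 1.22 to 1.99) and Srxn1 (0.78 to 1.19 and 1.16 to 1.58). The number of genes called over the whole table depended far more on the settings. The knockout effect at 22 °C had 258 called genes (119 higher and 139 lower). It had 130 with no filter, 83 with the 2 compared groups alone, 461 (386 higher and 75 lower) with an equal total over nuclear genes, and 3248 (3167 higher and 81 lower) with FPKM as deposited. Leaving out the controls with R identifiers gave 279 (93 higher, 186 lower). The knockout effect at 30 °C had 1845 called genes (1154 higher and 691 lower), 4571 (4280 higher and 291 lower) with FPKM as deposited, 2634 (2225 higher and 409 lower) with an equal nuclear total, and 1822 (887 higher and 935 lower) with quantile normalization. The housing effect had 5072 called genes in controls (2384 higher and 2688 lower) and 4938 (1738 higher and 3200 lower) with FPKM as deposited. In knockouts it had 6689 (2850 higher and 3839 lower) and 7127 (4203 higher and 2924 lower) with quantile normalization. The difference of the knockout effects had 0 called genes, 9 with no filter, 6 with FPKM as deposited, 8 with quantile normalization, 10 with an equal nuclear total and 7 without the trend. The no-filter fit tests more genes, and for the other changes the cause was not tested.

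Leaving out 1 animal at a time gave 70 to 272 called genes for the knockout effect at 22 °C, with 103, 127 and 152 without control replicates 1, 2 and 4 and 97 and 70 without knockout replicates 1 and 2. It gave 877 to 2243 at 30 °C, with 1017 and 907 without control replicates 1 and 2 and 877 and 968 without knockout replicates 1 and 3. The housing effect had 3495 to 5738 in controls and 5249 to 6553 in knockouts. The difference of the knockout effects had 0 to 197, with 197 without knockout replicate 2 at 30 °C.

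Reversals among the 10 genes were of small differences that had not passed. The difference of the knockout effects turned for Cbr3 with a pseudocount of 0.1 (0.056) and without the controls with R identifiers (0.33), for Hmox1 with a pseudocount of 0.1 (0.016) and quantile normalization (0.034), and for Txnrd1 with quantile normalization (0.022). The housing effect in controls turned for Txnrd1 with quantile normalization (0.0091) and without the controls with R identifiers (0.21). In knockouts it turned with FPKM as deposited for Gclm (-0.027), Prdx1 (-0.0495) and Nfe2l2 (-0.0544), and with quantile normalization for Nqo1 (0.17), Gclc (0.0387), Txnrd1 (0.0316) and Srxn1 (0.12). Leaving out 1 animal moved the difference of the knockout effects from -0.42 to 0.19 for Cbr3, from -0.33 to 0.42 for Hmox1 and from -0.23 to 0.0631 for Txnrd1. It moved the housing effect from -0.14 to 0.16 for Txnrd1 in controls. In knockouts it moved it from -0.0261 to 0.16 for Nfe2l2, from -0.30 to 0.17 for Nqo1, from -0.15 to 0.14 for Srxn1, from -0.0389 to 0.20 for Gclm and from -0.22 to 0.48 for Prdx1. Among other genes, the fall of Gpx3 at 30 °C turned to 0.37 with quantile normalization. The cause was not tested.

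Nqo1 had as few as 11 reads in a library, so counting error is widest for it. Groups of 3 and 4 animals limit what the tests can detect. No paired analysis was possible because the labels give no replicate numbers or pairing of animals.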
